A study of Saccharomyces cerevisiae with 2 samples.

Results

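Pho85 is a cyclin-dependent kinase of budding yeast, and the genes described here are PHO85 itself and 9 genes for the cyclins that direct it to its substrates, PCL1, PCL2, PCL5, PCL6, PCL7, PCL8, PCL9, PCL10 and CLG1. They were picked by gene symbol, as a family named with earlier results of these data known, and are 10 of 5449 Saccharomyces cerevisiae genes with a named probe set on the array. Each was read by a single probe set, and no probe set among these 10 is marked as shared between transcripts. In the alpha-factor culture, compared with the mock culture, PCL1 was 25.5-fold lower, PCL9 was lower with a log2 ratio of -2.32, PCL2 was 7.84-fold higher, and the other 7 genes stayed within 2-fold.

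Transcript levels had been measured in 1 culture treated with the mating pheromone alpha factor and in 1 mock-treated culture of the same strain, each on 1 Affymetrix Yeast 2.0 array. The strain, called R276, is of the a mating type and of S288c background by way of BY4741, with the genotype MATa ura3Δ0 leu2Δ0 his3Δ1 met15Δ0 bar1Δ::KanMX, so both cultures lacked the protease Bar1, which cells of this type secrete and which breaks the pheromone down. The treated culture grew in rich medium (YPD) at 30°C with 50 ng/ml of the peptide for 3 hours, after which about 90% of its cells were recorded as having mating projections; of the mock culture's growth, the sources used here say nothing. A further label of the mock sample calls its cells arrested, against its title and source name, which were followed. With 1 array per culture there is no replicate error, no test and no p-value for any value below, and precision is limited by that number of arrays.

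Like other cyclin-dependent kinases, Pho85 acts only with a cyclin bound, and it has an unusually large set of them. They fall into a subfamily related to Pcl1 and Pcl2, which includes Pcl5, Pcl9 and Clg1 and is known for roles in the G1 phase, in polarised growth and in the turnover of regulators, and a subfamily related to Pho80, which includes Pcl6, Pcl7, Pcl8 and Pcl10 and is known for roles in phosphate and carbon storage metabolism. Alpha factor stops a cells in G1, before the cyclin Cln1 or Cln2 has activated the main cell cycle kinase Cdc28. The comparison of the cultures shows which Pho85 cyclin transcripts were higher or lower in the treated culture. In this design the arrest and the transcription response to the pheromone cannot be told apart.

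Marks of the labelled treatment and cell type are given as description only. Their lists were chosen with earlier results of these data known, so they are no independent check. All 5 listed pheromone response genes (FUS1, FIG1, PRM1, AGA1 and KAR4) were at least 2-fold higher with alpha factor. Their median log2 ratio was 2.78. For this and the marker lists below, the shares over all genes above background were 5.51% higher and 3.78% lower. Of the genes deleted in the strain, BAR1, URA3, LEU2 and MET17 were not above the background level in either array. HIS3, by contrast, was at 12.21 with alpha factor and 11.80 in the mock array. Whether its probe set lies in the deleted part of that gene was not examined, so its value checks nothing. Of the 7 a-cell genes, the 6 other than BAR1 were above background, with levels up to 14.64 in the alpha-factor array and 13.97 in the mock array. All 6 had log2 ratios above 0, where the median over all genes above background was -0.03, and 2 were 2-fold or more higher. These were ASG7, at 14.14 with alpha factor and 9.44 in the mock array, and AGA2, at 13.89 and 12.62. Of 4 alpha-cell genes, 2 were 2-fold or more higher, STE3 at 9.49 with alpha factor and 7.74 in the mock array and MF(ALPHA)2 at 8.64 and 6.36, and MF(ALPHA)1, which encodes most alpha factor in alpha cells, was at 5.93 and 5.85; the 4 ran from 5.93 to 9.91 with alpha factor and from 5.85 to 9.53 in the mock array. Controls also differed: probe sets of 25S ribosomal RNA had log2 ratios between -5.20 and 0.01, and the added lys transcript was present with alpha factor and the dap transcript in the mock array. The part of these genes and controls in the results below was not tested. Levels are log2 expression values, the background level is the 95th percentile of the fission yeast probe sets (5.49 with alpha factor, 5.50 mock), and calls rest on size alone: a gene counts as higher or lower if alpha factor over mock gives a log2 ratio of 1 or more in size and either array shows it above background.

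All 10 genes were above background in both arrays. In the alpha-factor array they lay between 6.27 and 12.73, and in the mock array between 9.38 and 11.64. Apart from the background level and the search for nearest genes below, levels of different probe sets were not compared with each other, since probes differ in response. By the 2-fold rule 1 of the 10 was higher, where 5.51% of the 5337 genes above background were, and 2 of the 10 were lower, where 3.78% of those genes were. Centring the ratios on the array's hybridisation controls was chosen after seeing the data. Over all genes it gave 238 higher and 269 lower genes in place of 294 higher and 202 lower. The counts among the 10 genes stayed as they were, which a shift of -0.13 could not have changed. The median log2 ratio of the 10 was -0.04, beside -0.03 for all genes above background, and the median size of the ratio without its sign was 0.28 in the 10 and 0.29 in all genes. The called genes all belonged to the Pcl1,2 subfamily, where 1 of 5 was higher and 2 were lower. None of the 4 genes of the Pho80 subfamily among the 10, which leave out PHO80 itself, was called. Whether the subfamilies differ was not tested.

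**Figure D1:**
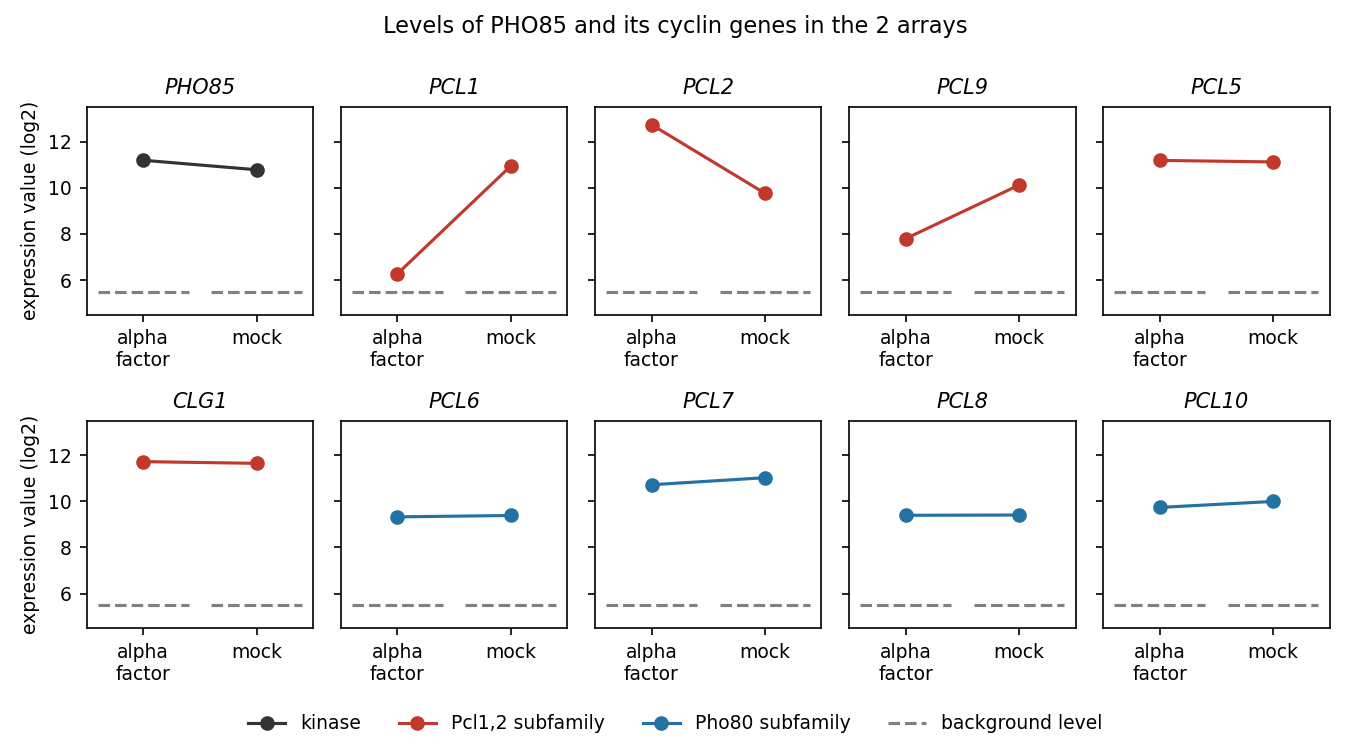
Expression values (log2) of the 10 genes in the alpha-factor array (left point) and the mock array (right point), 1 array each, coloured by subfamily, with dashed lines at the background level. PCL1 was at 6.27 with alpha factor, near the background level of 5.49, PCL2 reached 12.73, and the lines of the Pho80 subfamily are nearly flat.

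PHO85, the gene of the kinase, was at 11.19 in the alpha-factor array and at 10.78 in the mock array. Its log2 ratio of 0.41, or 1.33-fold, was the largest of the 7 genes within 2-fold and stood at percentile 82.5 among all genes above background. Its level was 5.70 above background with alpha factor and 5.28 above it in the mock array.

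PCL1 encodes a cyclin that acts in late G1 beside Cln1 and Cln2, and its gene is transcribed at the passage from G1 into S phase by the factor SBF, made of Swi4 and Swi6. It was at 6.27 in the alpha-factor array and at 10.94 in the mock array, a log2 ratio of -4.67. That was the second lowest ratio of all 5337 genes, after TOS6, which was at -4.77. With alpha factor PCL1 lay 0.78 above the background level, against 5.44 above it in the mock array, so its remaining signal was weak. With a pseudocount of 32 on the linear scale, which lowers the ratios of dim genes, its log2 ratio was -4.19. In RNA from a whole culture, fewer cells with the transcript and less transcript per cell cannot be told apart.

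PCL9 encodes a cyclin of very early G1, whose gene is transcribed as cells leave mitosis under the transcription factor Swi5. It was at 7.79 with alpha factor and at 10.12 in the mock array, a log2 ratio of -2.32. It had the 37th lowest ratio of all genes above background and stayed 2.30 above the background level with alpha factor. The log2 ratio of PCL1 minus that of PCL9 was -2.35, so the difference between the arrays was smaller for PCL9.

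PCL2 encodes the cyclin that is usually paired with Pcl1, since they share roles in G1 and in the polarity of growth, and its gene is likewise transcribed around G1. It was at 12.73 with alpha factor and at 9.76 in the mock array, a log2 ratio of 2.97. It had the 26th highest ratio of all genes above background. The ratios of PCL2 and PCL1 were thus 7.64 log2 units apart, or 200-fold, in opposite directions. That distance rests on the weak signal of PCL1 with alpha factor, 0.78 above background. With a pseudocount of 32 the log2 ratios were closer together, at 2.93 for PCL2 and -4.19 for PCL1. PCL2 and PCL9 are duplicates from the ancient genome duplication of yeast, and their ratios were 5.29 log2 units apart, also in opposite directions. PCL2 and PCL9 were above the background level in both arrays.

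**Figure D2:**
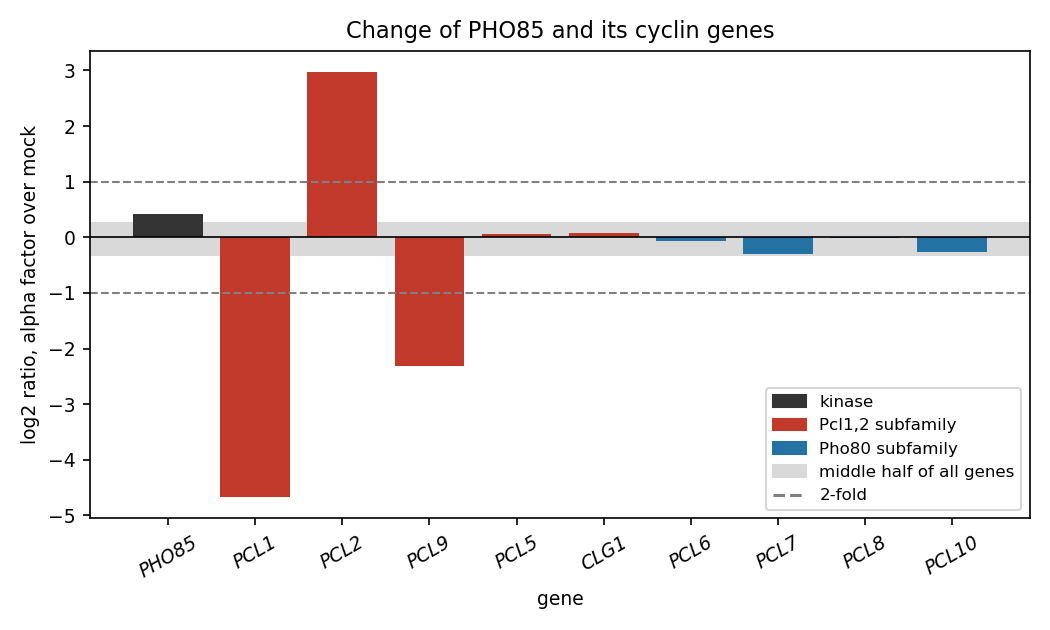
Log2 ratio of alpha factor over mock for the 10 genes, as bars from 0 coloured by subfamily, with dashed lines at 2-fold and a grey band over the interquartile range of all genes above background (-0.32 to 0.26). PCL1 and PCL9 are below the 2-fold line, PCL2 is above it, and the other 7 lie between -0.31 and 0.41.

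The remaining members of the Pcl1,2 subfamily hardly differed between the arrays. PCL5, whose cyclin directs Pho85 to the transcription factor Gcn4 and so to its degradation, was at 11.19 with alpha factor and at 11.12 in the mock array, a log2 ratio of 0.07. CLG1, a cyclin-like protein of the same subfamily, was at 11.72 with alpha factor and at 11.64 in the mock array, a log2 ratio of 0.07 as well. Centring on the hybridisation controls turned both ratios to slightly below 0, at -0.07 for PCL5 and -0.06 for CLG1, so these genes have no settled direction.

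The Pho80 subfamily showed only small ratios. PCL6 and PCL7 are duplicates whose cyclins are linked to the phosphorylation of Glc8, a regulator of the protein phosphatase Glc7. PCL6 was at 9.32 with alpha factor and at 9.38 in the mock array, and PCL7 was at 10.72 with alpha factor and at 11.02 in the mock array. Their log2 ratios of -0.06 and -0.31 were 0.25 apart. PCL8 and PCL10, also duplicates, encode the cyclins that direct Pho85 to the glycogen synthase Gsy2. PCL8 was at 9.39 with alpha factor and at 9.40 in the mock array, and PCL10 was at 9.73 with alpha factor and at 9.99 in the mock array. Their log2 ratios of -0.01 and -0.26 were likewise 0.25 apart, and that of PCL8 passed to 0.02 after centring on the median gene. The ratios of these 4 genes spanned 0.29 log2 units, against 7.64 in the Pcl1,2 subfamily. PHO80 itself, described further below, is not in this span and had a log2 ratio of 0.22.

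Of the 7 genes within 2-fold, 3 had a linear ratio of alpha factor over mock above 1 and 4 had one below 1. A share of 56.8% of all genes above background had a log2 ratio in the same range as these 7, -0.31 to 0.41. Of the 7, 6 also lay within the range that holds 95% of the fission yeast probe sets (-0.38 to 0.35), and PHO85 lay just above it. That range comes from dim signal in these arrays and is no measure of how cultures vary.

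**Figure D3:**
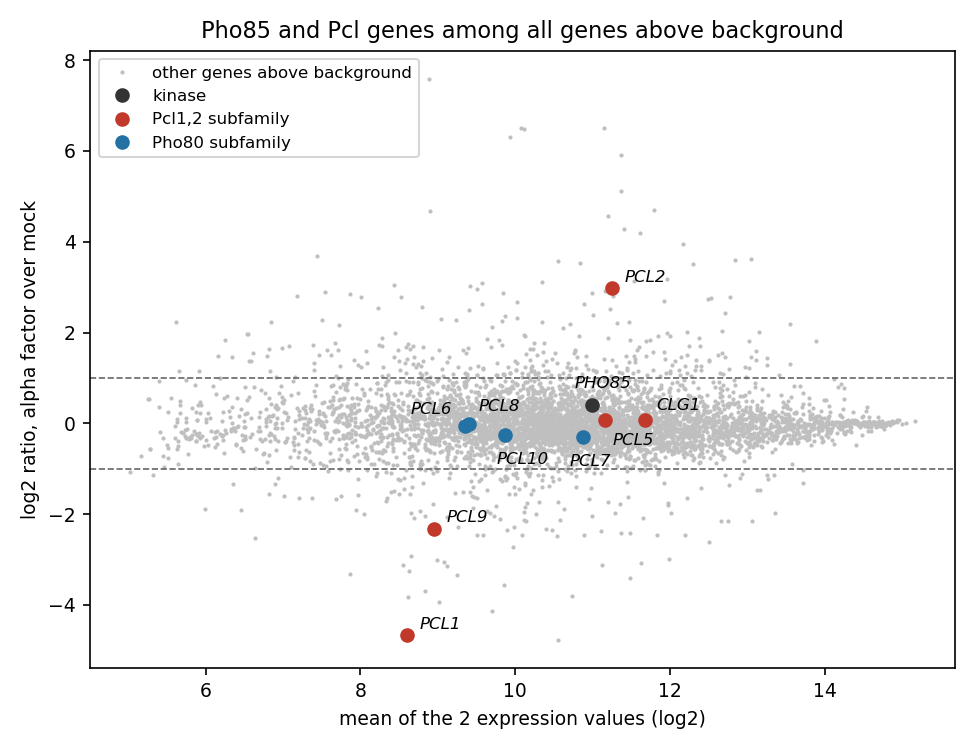
Log2 ratio of alpha factor over mock against the mean of both expression values (log2), with 1 grey point for each of the 5337 genes above background and the 10 named genes in colour by subfamily. PCL1 lies at the lower edge of all genes at -4.67, PCL2 lies at 2.97, and the others apart from PCL9 lie inside the dense band around 0.

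Among the cyclins of other kinases, lower values were common and no gene was higher by 2-fold. Of all genes above background, 3.78% were lower and 5.51% higher. Of the 3 Cln cyclins of Cdc28, CLN1 was at 7.56 with alpha factor and 10.62 in the mock array (log2 ratio -3.06), and CLN2 was at 9.42 and 10.98 (-1.57). CLN3, the cyclin that starts the G1 programme, was at 12.40 with alpha factor and 11.89 in the mock array (0.51). Of the 6 B-type cyclins, 4 were lower, namely CLB1 with a log2 ratio of -3.80, CLB6 with -3.32, CLB2 with -1.26 and CLB5 with -1.02, while CLB3 had -0.67 and CLB4 had 0.20. CLB5 is no longer past 2-fold after centring on the S. cerevisiae or the S. pombe median or with a pseudocount of 32, which leaves 3 of the B-type cyclins lower. The 4 cyclins of the kinases that act on RNA polymerase II, CCL1, SSN8, BUR2 and CTK2, lay between -0.36 and 0.17. Over these 13 cyclin genes, 0 passed 2-fold upwards and 6 downwards, CLB5 included, and their median log2 ratio was -0.67, so that PCL2 was the only one of the 22 cyclin genes in the plot of families that was higher by 2-fold, and PCL1 had the lowest ratio of them. Like PHO85, the 6 other kinases listed with it stayed within 2-fold. CDC28 had a log2 ratio of 0.03, KIN28 of -0.07, SSN3 of 0.06, SGV1 of -0.14, CTK1 of -0.53 and CAK1, which activates Cdc28, of 0.32.

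**Figure D4:**
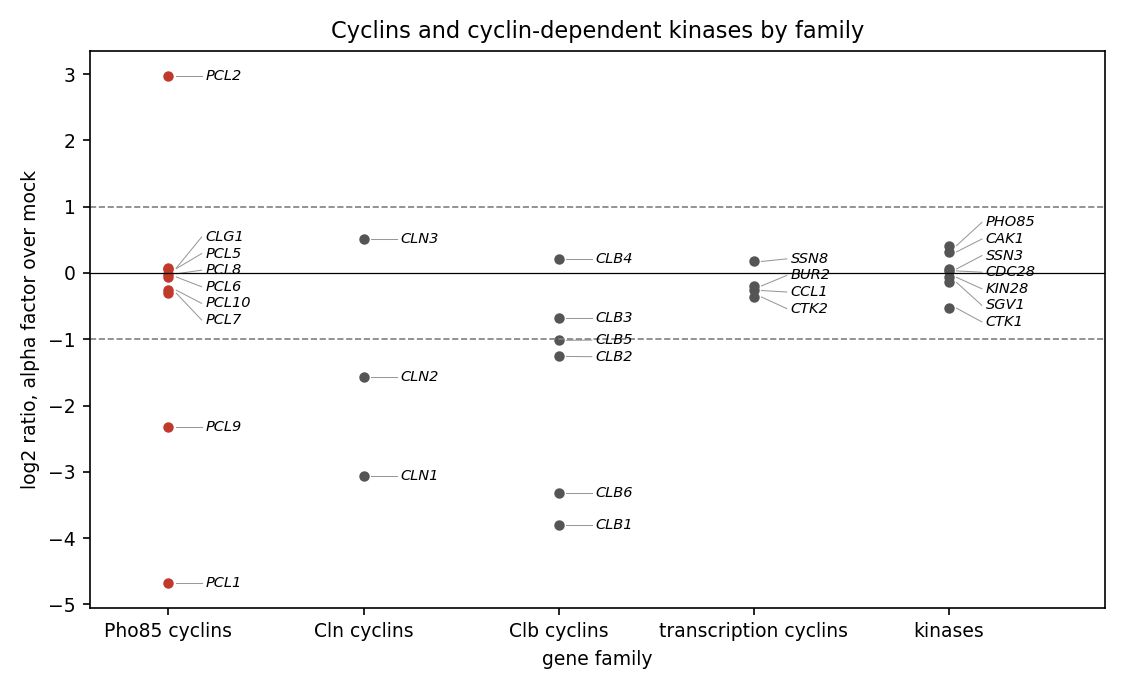
Log2 ratio of alpha factor over mock for the 9 Pho85 cyclins described here (red; PHO80 is not plotted), for the Cln, Clb and transcription cyclins, and for the kinases including PHO85, with 1 point per gene and dashed lines at 2-fold. PCL2 at 2.97 stands above all other cyclins, PCL1 at -4.67 stands below them, and the kinases lie between -0.53 and 0.41.

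Pho80 is the Pho85 cyclin of the phosphate pathway, and its gene and those of its regulators were within 2-fold. PHO80 was at 10.52 with alpha factor and 10.30 in the mock array, and PHO81, whose product inhibits Pho80 with Pho85 when phosphate is scarce, was at 12.07 and 11.62. KCS1 and VIP1, kinases that make inositol pyrophosphates, had log2 ratios of -0.60 and -0.26. None of the 4 was called, and their median was -0.02.

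Of 16 genes that encode substrates ascribed to Pho85, 2 were lower and 0 higher past 2-fold, and the median log2 ratio was 0.03. The shares over all genes above background were 3.78% lower and 5.51% higher. CDC6, the replication licensing factor, was at 8.12 with alpha factor and 10.40 in the mock array, a log2 ratio of -2.28. SIC1, the inhibitor of Cdc28 with B-type cyclins, was at 9.28 with alpha factor and 10.47 in the mock array, a log2 ratio of -1.19. The other 14 lay within 2-fold; chosen after their values were seen, they include RGA2, an inhibitor of the polarity GTPase Cdc42, at 0.63, and PHO4, the activator of phosphate genes, at -0.71.

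The list of regulators of cyclin genes, which also holds the kinase inhibitor gene FAR1, numbered 13 on the array. Of these, 3 were lower and 1, FAR1, was higher (median log2 ratio -0.55). Over all genes above background, 3.78% were lower and 5.51% higher. SWI5, the activator named above with PCL9, was at 6.98 with alpha factor and 10.68 in the mock array, a log2 ratio of -3.70. YOX1 and NRM1, repressors of genes of the start of the cycle and of G1/S, had log2 ratios of -3.94 and -3.14. FAR1, the inhibitor of Cdc28 with Cln cyclins in pheromone arrest, was at 13.59 with alpha factor and 12.34 in the mock array, a log2 ratio of 1.25. Chosen after their values were seen, SWI4 and SWI6, which form the factor named above with PCL1, had log2 ratios of -0.84 and -0.07, and STE12, the activator of mating genes, had 0.68.

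The lists tied to the known roles of the other cyclins are read beside the shares over all genes, 5.51% higher and 3.78% lower. Of 11 glycogen genes, 2 were higher and none was lower, with a median log2 ratio of 0.43 and 9 of 11 above 0. The branching enzyme gene GLC3 was at 11.04 with alpha factor and 9.53 in the mock array (1.51), and the phosphorylase gene GPH1 was at 10.13 and 8.59 (1.54). GSY2, the glycogen synthase reached through Pcl8 and Pcl10, had a log2 ratio of 0.61, named after its value was seen. Of 14 phosphate genes, 4 were lower and none was higher, with a median of -0.55 and 12 of 14 below 0; PHO12 was not analysed here. They were the acid phosphatase genes PHO5 at -2.41 and PHO11 at -2.09, SPL2 at -1.74 and the polyphosphate synthesis gene VTC3 at -1.22. The PHO11 probe set is marked as shared between transcripts, so its value is uncertain. Of 12 targets of Gcn4, 2 were higher, ARG4 of arginine synthesis at 1.17 and LYS1 of lysine synthesis at 1.02, and 1 was lower, LYS20 at -1.30, with a median of 0.16. LYS1 is no longer past 2-fold with a pseudocount of 32 or after centring on the hybridisation controls. GCN4 itself, chosen after its value was seen, was at 14.23 with alpha factor and 14.25 in the mock array.

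**Figure D5:**
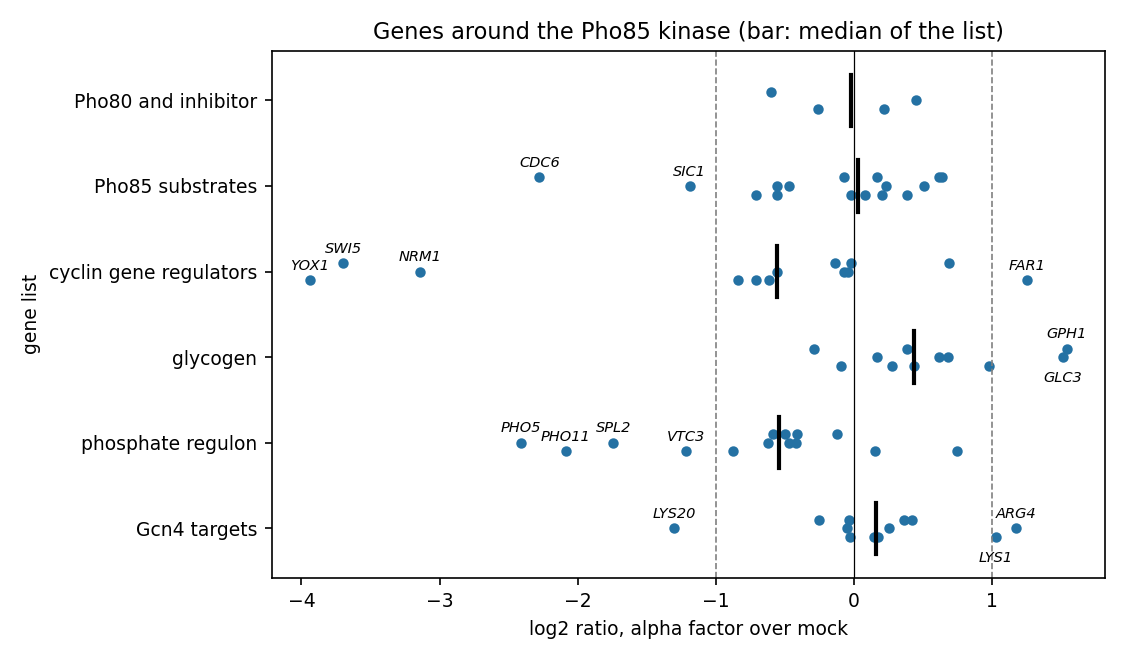
Log2 ratio of alpha factor over mock for the genes of 6 lists around Pho85, with 1 point per gene, a black bar at the median of each list, dashed lines at 2-fold, and names beside the genes past 2-fold. The medians run from -0.55 in the cyclin gene regulators and the phosphate genes to 0.43 in the glycogen genes, while single genes reach -3.94 (YOX1) and 1.54 (GPH1).

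For each called gene, the 3 genes with the smallest Euclidean distance over both log2 levels were listed as those most like it in these 2 arrays. This search sets levels of different probe sets together, which respond differently to the same amount of transcript, and 2 arrays are few points. Nearest to PCL2 were KAR3, a kinesin of nuclear fusion, at a distance of 0.12, KAR5, also of nuclear fusion, at 0.13, and HYM1 at 0.32. Nearest to PCL1 were HOF1, a cytokinesis protein, at 0.59, SWI5 at 0.76 and YOX1 at 0.78. Nearest to PCL9 were YOL014W at 0.26, KIN3, a protein kinase gene, at 0.29 and SPT21, a regulator of histone genes, at 0.38.

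Position beside other genes was compared with the annotation of assembly R64, which was used only for which genes neighbour each other. None of the 10 genes is overlapped by another annotated gene. Of their 20 protein-coding neighbours, 18 had a named probe set, none of these was higher by 2-fold and 1 was lower. The shares over all genes above background were 5.51% higher and 3.78% lower. The lower neighbour, named after its value was seen, was VCX1, a vacuolar calcium exchanger gene that lies upstream of PCL2 on the same strand. VCX1 was at 9.65 with alpha factor and 12.11 in the mock array, a log2 ratio of -2.46 against 2.97 for PCL2. CDC48, downstream of PCL2 on the other strand, was at 13.83 with alpha factor and 13.85 in the mock array. The neighbours of PCL1 were RFC3 and CAF40, with log2 ratios of -0.59 and -0.43. Of the neighbours of PCL9, DLD2 had a log2 ratio of 0.23 and AIT1 was not analysed here.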

How the data were processed

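Total RNA of each culture was extracted with hot phenol, treated with DNase and hybridised after biotin labelling, per the labels' protocols. The deposited table holds 1 log2 expression value for each of 10928 probe sets per array; the log2 scale was read from the values (3.32 to 15.19); after sorting, the columns were within 0.092 of each other. The authors used affy, per the submitters' processing notes; the sources used here do not give its version, background correction, normalization or probe summary. If the arrays were scaled to each other, ratios are relative to the average gene.

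Probe sets were named through the platform annotation, with symbols updated by gene ID to RefSeq (assembly R64): 7244 had 1 gene, 1 had several and 3683 had none. Those with a gene ID of S. cerevisiae (5498) were averaged per gene, and the other 1746 served as fission yeast background. Genes were named by a written rule: all members, genes of each list past 2-fold (the 4 largest per direction where over 8 were called), lists of up to 6 genes in full, and 3 nearest genes per called member. The calling was tested on simulated data, with planted changes well past 2-fold and only in brighter genes. That test cannot show how calls near 2-fold or in dim genes behave, nor how cultures vary. The members and lists were chosen with earlier results of these data known. Alternatives were other centrings, quantile and loess normalization, a pseudocount, other background levels, other fold rules and the brightest probe set of a gene. Python 3.11.15, numpy 2.4.6, pandas 2.3.3 and statsmodels 0.14.6 were used.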

Additional observations from a re-analysis of the deposited data

Results flagged for a closer look

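The array's labelling controls, transcripts of Bacillus subtilis genes that are normally added to a sample and that belong to no yeast gene, differed between the arrays and are used in no comparison above. The 9 probe sets of the lys control had a median of 12.27 in the alpha-factor array and of 4.36 in the mock array. The 9 probe sets of the dap control had a median of 4.16 in the alpha-factor array and of 14.02 in the mock array. The phe and thr controls were near background in both, with medians of 4.12 and 4.53 with alpha factor and of 4.21 and 4.63 in the mock array. Each array thus carries 1 such control that the other lacks, and whether this goes with other differences in handling was not tested. The 27 probe sets of the hybridisation controls (bioB, bioC, bioD and cre) had log2 ratios of alpha factor over mock between 0.01 and 0.34, with a median of 0.13. The 8 probe sets of 25S ribosomal RNA had ratios between -5.20 and 0.01, and the 11 of 18S ribosomal RNA between -1.81 and -0.18. Their part in the ratios of the Pho85 and cyclin genes was not tested, apart from the centring on the hybridisation controls.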

How the results depend on the processing

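Under all 12 alternatives PCL1 and PCL9 were lower and PCL2 was higher past the fold rule, the 4-fold rule included. Some alternatives could not change these calls. Each of the genes has a single probe set, and the 1.5-fold rule and a lower or absent background level only loosen the rule. Centring moved every ratio by the same small amount: 0.03 for the S. cerevisiae median, 0.02 for the S. pombe median and -0.13 for the hybridisation controls. At the 2-fold rule such shifts could not undo these calls, of which PCL9 at -2.32 was the closest to the rule. The log2 ratio of PCL1 ran from -4.80 to -4.19, that of PCL9 from -2.45 to -2.17 and that of PCL2 from 2.84 to 3.04; the median of the 10 genes ran from -0.17 to -0.0027. Centring on the hybridisation controls, added after seeing the data, shifted the median of all genes by -0.13. The 1.5-fold rule called 646 genes higher and 570 lower, and the 4-fold rule 68 and 54. At 1.5-fold the Pho80 list had 1 lower gene, the substrates 2 higher and 3 lower, the Clb cyclins 5 lower, the cyclin gene regulators 2 higher and 6 lower, the glycogen genes 5 higher, and the phosphate genes 1 higher and 7 lower. At 4-fold the substrates had 1 lower gene, the Cln cyclins 1, the Clb cyclins 2 and the phosphate genes 2, while the regulators and the glycogen genes had 0 higher, and the Gcn4 targets had 0 higher and 0 lower. With a pseudocount of 32, or after centring on the hybridisation controls, 1 Gcn4 target was higher. The Clb cyclins had 3 lower genes with that pseudocount and after centring on the S. cerevisiae or the S. pombe median. Both of these centrings gave 3 higher glycogen genes, and centring on the hybridisation controls gave 5 lower phosphate genes. No other list count changed outside the fold rules. These changes follow from the threshold or scale itself. No paired analysis was possible because each group has 1 array, and no array could be left out for the same reason.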
